A study of Mus musculus with 6 samples.

Results

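Cells release ATP and other nucleotides when they are stressed or activated, and blood leukocytes sense these nucleotides through the P2X channels and the P2Y G protein-coupled receptors. Surface enzymes end the signal: NTPDases such as CD39 (*Entpd1*) and NTPDase3 (*Entpd3*) convert ATP and ADP to AMP, and CD73 (*Nt5e*) converts AMP to adenosine, which acts on adenosine receptors. In neutrophils, P2Y2 is known to take part in orientation during chemotaxis, whereas the adenosine receptor encoded by *Adora2a* is known for restraining their activation.

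The genes described here are 10 of the 29097 genes listed in the deposited table, found by their symbols: the ectonucleotidases *Entpd1*, *Entpd3* and *Nt5e*, the adenosine receptors *Adora2a* and *Adora2b*, the ATP-gated channels *P2rx4* and *P2rx7*, and the nucleotide receptors *P2ry2*, *P2ry13* and *P2ry14*. They were chosen by family and with the difference between LIP and Ctrl libraries in view, *Entpd3* having the strongest rise among them, so that their own differences are given below as a description with no test. Neutrophils (CD45+CD11b+Ly6G+) were sorted from the peripheral blood of young adult male C57BL/6 wild-type mice, which had silk ligatures on the molars for 14 d (ligature-induced periodontitis, LIP, labelled Lig) or were left unligated for the same time (Ctrl), with no other treatment. Each group has 3 Smart-seq2 libraries, each prepared from neutrophils pooled over several mice, and the library totals lay between 52186555 and 57262379 reads. Levels are given as CPM, which are counts scaled to library size after TMM scaling and serve to compare libraries, and as FPKM as deposited, which are divided by gene length and serve to compare genes. All 10 genes were present in the table, and 8 had a mean FPKM of at least 1 and entered the fit across all genes. *P2rx7* and *P2ry14* fell below it, and their fold changes come from a fit of all listed genes.

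Marker genes of several blood cell types moved with the ligature, and their levels stand beside every result below. All 21 markers of mature neutrophils and all 3 sort markers rose in LIP (edgeR's quasi-likelihood test, adjusted p below 0.05), and *Ly6g* had 17.2 CPM in Ctrl and 50.5 CPM in LIP. The summed level of the mature neutrophil list was 17006 to 19221 CPM in Ctrl and 61267 to 66265 CPM in LIP. In contrast, all 12 B cell markers were lower in LIP, with sums of 18185 to 20224 CPM in Ctrl and 3789 to 3818 CPM in LIP, and so were all 12 T cell markers, with 746 to 802 CPM and 166 to 206 CPM, and the 10 erythroid markers tested, with 130008 to 138397 CPM and 17622 to 18369 CPM. All 9 platelet markers (1083 to 1299 CPM in Ctrl, 2730.1 to 3299 CPM in LIP) and 8 of 9 monocyte markers (1398 to 1706 CPM and 2587 to 2768 CPM) were higher in LIP. Of 8 NK cell markers 2 were higher (367 to 429.8 CPM and 450.4 to 502 CPM), and of 6 eosinophil and basophil markers tested 1 was higher and 1 lower (27.2 to 37.7 CPM and 42.9 to 54.3 CPM). No list was at 0 in any library, and *Cd79a*, *Cd3e*, *Pf4* and *Csf1r*, defining markers of B cells, T cells, platelets and monocytes, had 266, 5.88, 489 and 500.3 CPM in LIP. In pooled sorted cells, fewer cells of a type and less RNA per cell cannot be told apart.

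**Figure D1:**
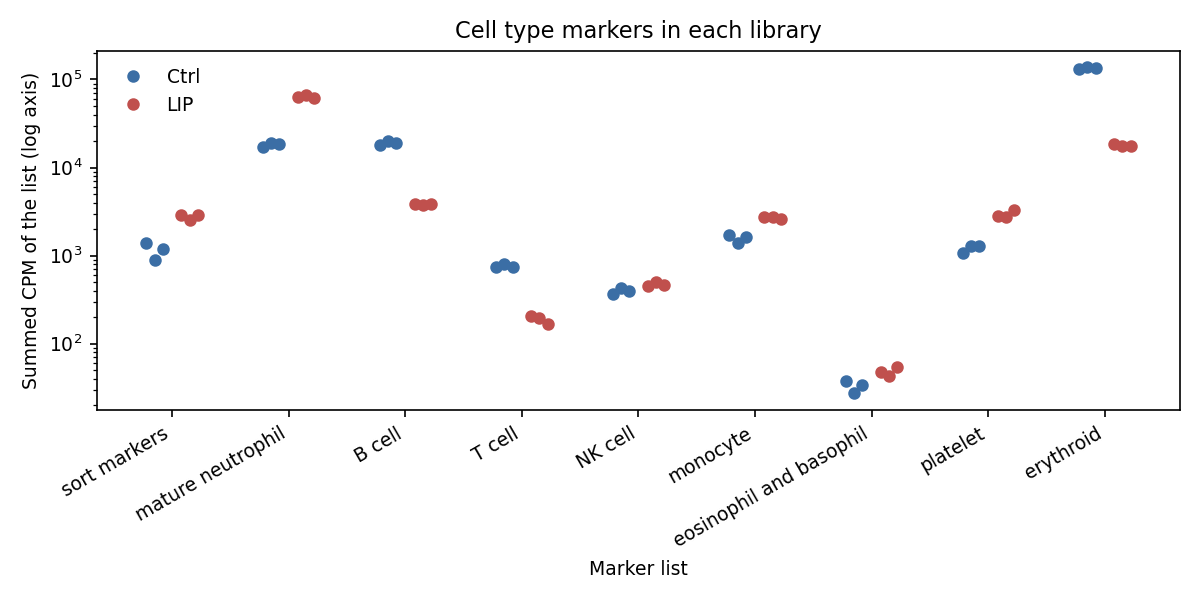
Summed CPM (TMM-normalized, log axis) of each list of cell type markers, with 1 point per library in Ctrl (blue) and LIP (red). The 3 LIP libraries lie above the 3 Ctrl libraries for the sort markers and for the mature neutrophil, monocyte, platelet, NK cell, and eosinophil and basophil lists, and below them for the erythroid list and for those of B and T cells.

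The upstream sequences of the 4 genes that rose most among the 10 are shown. These 4 genes were picked by their rise in LIP, so that nothing is read from their moving together. Windows were found in RefSeq (GRCm38.p6) for 9 of the 10 genes, and each line below gives, 5′ to 3′ on the strand of the gene, the 250 bases before the start site that matches the deposited gene model. Capitals mark matches on either strand to TTNNGCAA (C/EBP), GAGGAA (PU.1), the IRF motif, TGACGTCA (CRE), ACGTG (the core of HIF sites) or TGANTCA (AP-1).
Entpd3, chr9:120539568-120539817, plus strand: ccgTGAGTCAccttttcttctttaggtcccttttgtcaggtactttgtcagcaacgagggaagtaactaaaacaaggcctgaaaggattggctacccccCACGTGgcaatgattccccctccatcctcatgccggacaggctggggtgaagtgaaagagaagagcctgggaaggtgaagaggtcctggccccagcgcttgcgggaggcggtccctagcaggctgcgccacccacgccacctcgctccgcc
Entpd1, chr19:40612116-40612365, plus strand: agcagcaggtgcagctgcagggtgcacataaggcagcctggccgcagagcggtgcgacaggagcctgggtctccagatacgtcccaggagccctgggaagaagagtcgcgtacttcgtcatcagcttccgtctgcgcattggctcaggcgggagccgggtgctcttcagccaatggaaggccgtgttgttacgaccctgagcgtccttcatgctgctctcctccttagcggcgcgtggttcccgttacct
P2ry13, chr3:59210883-59211132, minus strand: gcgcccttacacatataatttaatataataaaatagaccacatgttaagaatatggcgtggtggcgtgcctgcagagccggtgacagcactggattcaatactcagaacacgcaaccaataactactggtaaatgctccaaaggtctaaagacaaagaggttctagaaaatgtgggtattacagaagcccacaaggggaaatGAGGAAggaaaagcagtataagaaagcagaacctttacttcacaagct
P2ry2, chr7:101011999-101012248, minus strand: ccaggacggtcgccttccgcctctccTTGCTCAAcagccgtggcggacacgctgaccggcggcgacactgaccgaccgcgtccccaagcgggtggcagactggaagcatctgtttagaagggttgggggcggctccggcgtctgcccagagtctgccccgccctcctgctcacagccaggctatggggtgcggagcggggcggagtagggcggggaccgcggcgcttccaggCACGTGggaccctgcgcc

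The *Entpd3* window holds CACGTG, in which ACGTG is read on both strands, beginning 151 bases before the start site, and the AP-1 letters beginning 247 bases before it. *P2ry2* has CACGTG as well, 18 bases before its start site, and a C/EBP match 224 bases before it. *P2ry13* has the PU.1 letters 48 bases before its start site, while the *Entpd1* window held none of the motifs searched. Over all 32851 RefSeq windows of this length, CACGTG occurred in 6.02% (this motif was added after the windows were seen), ACGTG in 16.6%, GAGGAA in 23.3%, TTNNGCAA in 9.56%, TGANTCA in 6.75%, the IRF motif in 2.98% and TGACGTCA in 1.55%. Of the other members with a window, *P2ry14* had GAGGAA and TGANTCA, *P2rx7* had TGANTCA, and *Nt5e*, *Adora2b* and *P2rx4* had none. The start sites used for *P2ry14*, *Nt5e* and *P2rx7* lay 1134, 412 and 16 bases from those of the deposited gene models. The GC content was 58.8% for *Entpd3*, 62.4% for *Entpd1*, 71.2% for *P2ry2* and 41.6% for *P2ry13*, against a median of 52.4% over all windows. A match is a description of the letters and not a binding site.

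*Entpd3*, which encodes NTPDase3, an enzyme that breaks down extracellular ATP and ADP, rose most among the 10 genes. It was at 12.4, 9.55 and 14.6 CPM in the 3 Ctrl libraries and at 112, 98.6 and 95.7 CPM in the 3 LIP libraries. The lowest LIP library was thus far above the highest Ctrl library. The mean went from 12.2 ± 2.52 to 102 ± 8.94 CPM (SD, n = 3 each), an 8.41-fold difference (3.07 on the log2 scale, standard error 0.18). By this fold change it ranked 10 among the 10440 genes tested, which describes the value it was chosen for. *Entpd3* (ENSMUSG00000041608) lies on chromosome 9 from 120539818 to 120568327 (GRCm38, plus strand), has 11 exons when its annotated transcripts are merged, and overlaps no other listed gene.

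*Entpd1*, which encodes CD39, the main ATP- and ADP-degrading enzyme on the surface of leukocytes, was the most abundant of the 10 genes in both groups. Its values were 128, 117 and 126 CPM in Ctrl and 456, 459 and 435 CPM in LIP, with no overlap. The log2 fold change was 1.86 (standard error 0.10), or 3.64-fold. The gene (ENSMUSG00000048120, chromosome 19 from 40612366 to 40741602) contains the pseudogene *Gm8783*, listed at a mean of 9.66 FPKM in Ctrl and 18.9 FPKM in LIP, which shares none of its exonic bases with those of *Entpd1*.

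*Nt5e*, which encodes CD73, the enzyme that completes the path from ATP to adenosine, stood at 9.65, 7.53 and 15.1 CPM in Ctrl and at 16.3, 10.3 and 10.3 CPM in LIP. The groups overlapped, and the log2 fold change of 0.19 (standard error 0.33) turned to -0.13 when libraries were scaled on their totals. Within a library, the FPKM ratio of *Entpd1* to *Nt5e* was 12.9 to 24.1 in Ctrl and 43.2 to 69.1 in LIP, and that of *Entpd3* to *Nt5e* was 2.22 to 2.94 and 15.9 to 22.1. These ratios do not depend on the scaling between libraries, and in both the 3 LIP libraries lay above the 3 Ctrl libraries. They can still depend on the make-up of the cells. The B cell and T cell lists fell in the same libraries, and their part in these ratios was not tested. The ratio of *Entpd3* to *Entpd1* was 0.143, 0.121 and 0.172 in Ctrl and 0.367, 0.319 and 0.327 in LIP, again without overlap. *Entpd3* was chosen for the strongest rise, so nothing is read from the direction of its ratios.

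**Figure D2:**
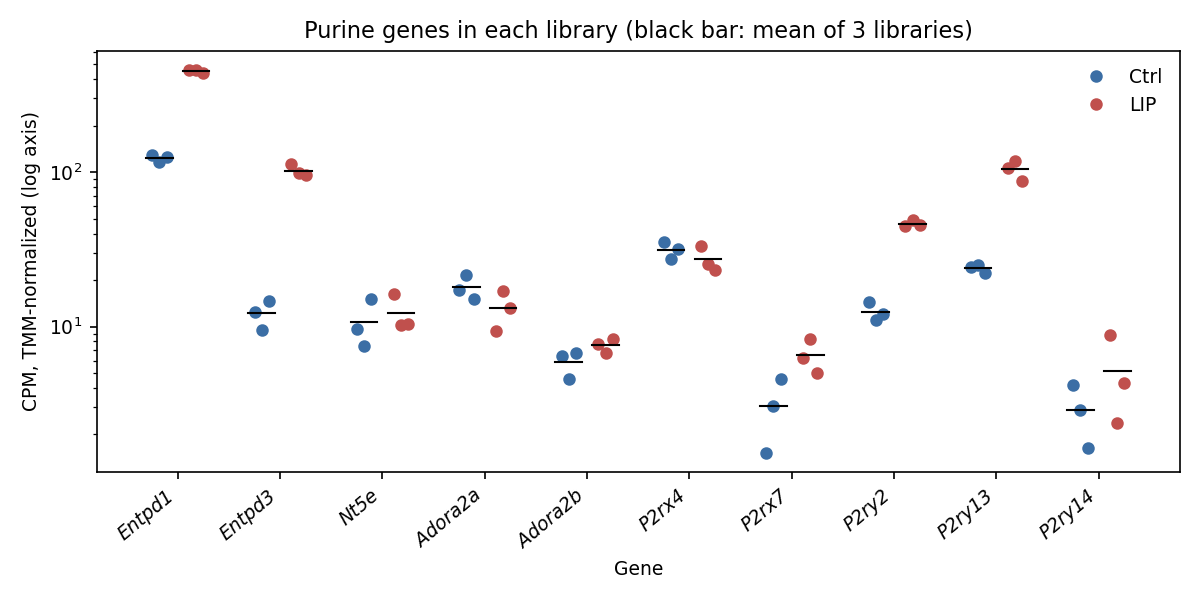
CPM (TMM-normalized, log axis) of the 10 purine genes in each of the 3 Ctrl (blue) and 3 LIP (red) libraries, with a black bar at the mean. *Entpd3*, *Entpd1*, *P2ry13* and *P2ry2* stand far apart between the groups, while *Nt5e*, *Adora2a*, *P2rx4* and *P2ry14* overlap.

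Among the nucleotide receptors, *P2ry13*, a receptor for ADP, had 24.3, 24.8 and 22.3 CPM in Ctrl and 106, 119 and 88.1 CPM in LIP. The lowest LIP library exceeded the highest Ctrl library more than 3-fold, and the log2 fold change was 2.13 (standard error 0.15), or 4.38-fold. *P2ry2*, a receptor for ATP and UTP, had 14.3, 10.99 and 12.01 CPM in Ctrl and 45.0, 48.7 and 45.5 CPM in LIP (log2 fold change 1.899, standard error 0.18), again without overlap. The FPKM ratio of *P2ry13* to *P2ry2* was 2.65 to 3.53 in Ctrl and 3.01 to 3.79 in LIP, and here the groups overlapped. *P2ry14*, a receptor for UDP-glucose, was at the lower end of the 10 genes, at 4.17, 2.87 and 1.63 CPM in Ctrl and 8.80, 2.37 and 4.28 CPM in LIP. Its groups overlapped, and the log2 fold change was 0.86 (standard error 0.58).

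The ATP-gated channels had smaller differences. *P2rx4* was at 35.1, 27.5 and 31.8 CPM in Ctrl and 33.3, 25.4 and 23.2 CPM in LIP (log2 fold change -0.20, standard error 0.20), and the groups overlapped. *P2rx7*, the channel known for activating the NLRP3 inflammasome, was at 1.53, 3.06 and 4.57 CPM in Ctrl and 6.23, 8.35 and 5.02 CPM in LIP. The lowest LIP value stood just above the highest Ctrl value, and the Ctrl values spread widely (log2 fold change 1.13, standard error 0.47). In reads, this was 92, 183 and 267 in Ctrl and 313, 426 and 237 in LIP. The 2 genes are neighbours on chromosome 5, 16111 bases apart on the same strand (GENCODE M21).

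The adenosine receptors, both of which raise cAMP, also had smaller differences. *Adora2a* was at 17.1, 21.4 and 15.2 CPM in Ctrl and 9.31, 16.9 and 13.3 CPM in LIP, and the groups overlapped (log2 fold change -0.45, standard error 0.27). In FPKM, which rest on library totals, its 3 LIP libraries (2.52 to 4.598) all lay below the 3 Ctrl libraries (5.09 to 7.11). *Adora2b* was at 6.43, 4.56 and 6.75 CPM in Ctrl and 7.74, 6.76 and 8.28 CPM in LIP, which just failed to overlap (log2 fold change 0.36, standard error 0.31), and in FPKM its groups overlapped. *Adora2a* is one of the genes of the set that lymphocytes also express, and the B cell and T cell lists fell in the same libraries; their part in these values was not tested.

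In all, each LIP library exceeded each Ctrl library in CPM for 6 of the 10 genes, *Entpd1*, *Entpd3*, *Adora2b*, *P2rx7*, *P2ry2* and *P2ry13*, and no gene had the opposite pattern; of the 8 genes that were tested, 5 were above. Of the 10440 genes tested, 30.3% had LIP libraries all above Ctrl libraries and 33.1% all below. Since the genes were chosen with this contrast in view, nothing is read from the count. With library totals in place of TMM, 4 genes were above and 2 below (*Adora2a* and *P2rx4*), against 21.2% and 44.9% of the genes tested.

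Per length, *Entpd1* led in both groups, at 22.8 FPKM in Ctrl and 67.1 FPKM in LIP, followed by *P2ry13* with 9.72 and 34.4 FPKM. In Ctrl, *Adora2a* (6.02 FPKM), *P2rx4* (4.61), *Entpd3* (3.34), *Adora2b* (3.31) and *P2ry2* (3.26) came next, each overlapping its neighbour in this order, and *Nt5e* (1.28), *P2rx7* (0.519) and *P2ry14* (0.266) were last, the latter 2 overlapping. In LIP, *Entpd3* (22.7 FPKM) and then *P2ry2* (9.84 FPKM) followed *P2ry13* without overlap with their neighbours, whereas *Adora2a* (3.58), *Adora2b* (3.43) and *P2rx4* (3.23) overlapped one another in turn. *Entpd3* therefore changed from a level shared with *Adora2b* and *P2ry2* to a place just after *P2ry13*. Expressed as a share of the summed FPKM of the 10 genes, *Entpd3* took 5.94%, 4.96% and 7.18% in the Ctrl libraries and 16.6%, 14.3% and 15.5% in the LIP libraries. The share of *Adora2a* was 10.1%, 13.7% and 9.17% in Ctrl and 1.68%, 3.001% and 2.63% in LIP. *Entpd1* took 41.0% to 41.7% in Ctrl and 44.8% to 47.4% in LIP, again without overlap, and the summed FPKM was 51.9 to 58.0 in Ctrl and 137 to 153 in LIP.

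**Figure D3:**
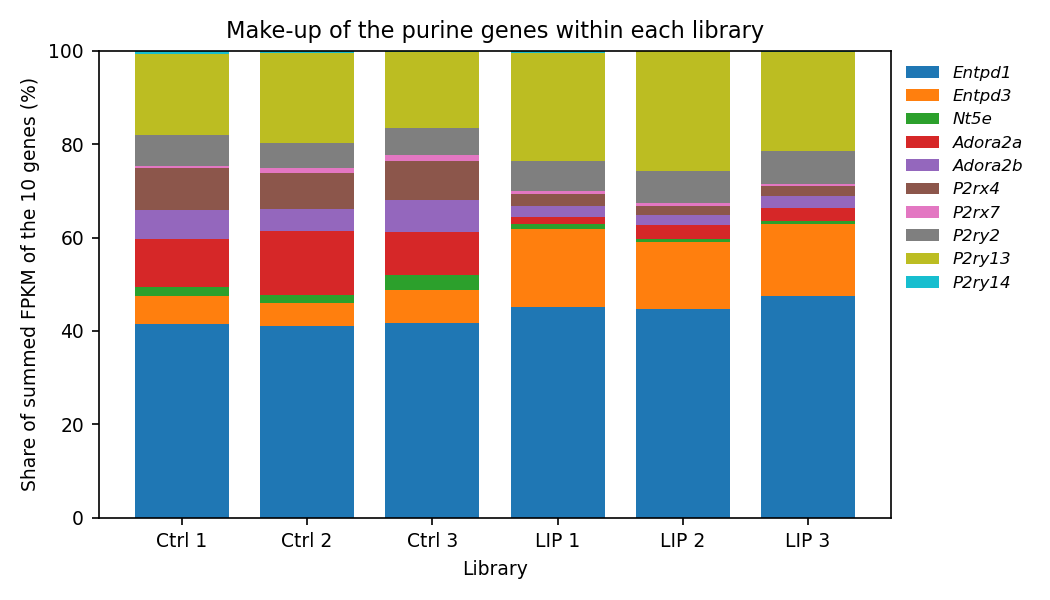
Share of each gene in the summed FPKM of the 10 purine genes (stacked bars, %, 1 bar per library). *Entpd1* takes the largest share in every library (41.0% to 41.7% in Ctrl, 44.8% to 47.4% in LIP), *Entpd3* widens from at most 7.18% in Ctrl to at least 14.3% in LIP, and *Adora2a* narrows.

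Since neutrophil markers as a whole were higher in LIP, the genes were also set against the summed reads of the 21 mature neutrophil genes in the same library, to which *S100a8* and *S100a9* contribute most. Per 100000 such reads, *Entpd3* had 72.7, 49.7 and 78.4 reads in Ctrl and 179.8, 149 and 156 in LIP, so that the groups still stood apart. *Entpd1* had 754, 609 and 675 in Ctrl and 728, 692 and 709 in LIP, and *P2ry2* had 57.2 to 84.3 and 71.9 to 74.3, with overlap in both. *P2ry13* had 119.9 to 143 in Ctrl and 144 to 179 in LIP, which barely failed to overlap. *Adora2a* was at 81.7 to 112 in Ctrl and 14.9 to 25.5 in LIP, *P2rx4* at 143 to 206 and 37.9 to 53.3, *Adora2b* at 23.7 to 37.8 and 10.2 to 13.5, and *Nt5e* at 39.2 to 81.0 and 15.5 to 26.02. For these 4 genes, every LIP library was below every Ctrl library on this scale, whereas *P2rx7* and *P2ry14* overlapped. With the libraries scaled on the same reads, the log2 fold changes were 1.27 for *Entpd3*, 0.33 for *P2ry13*, 0.09 for *P2ry2*, 0.06 for *Entpd1*, -0.69 for *P2rx7*, -0.97 for *P2ry14*, -1.44 for *Adora2b*, -1.60 for *Nt5e*, -2.01 for *P2rx4* and -2.24 for *Adora2a*. This scaling moved the median of all genes tested from -0.09 to -1.89, and 59 of the 10440 genes were called higher and 9146 lower. The share of all genes without overlap was not computed on this scale, so nothing is read from the 4 genes below.

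**Figure D4:**
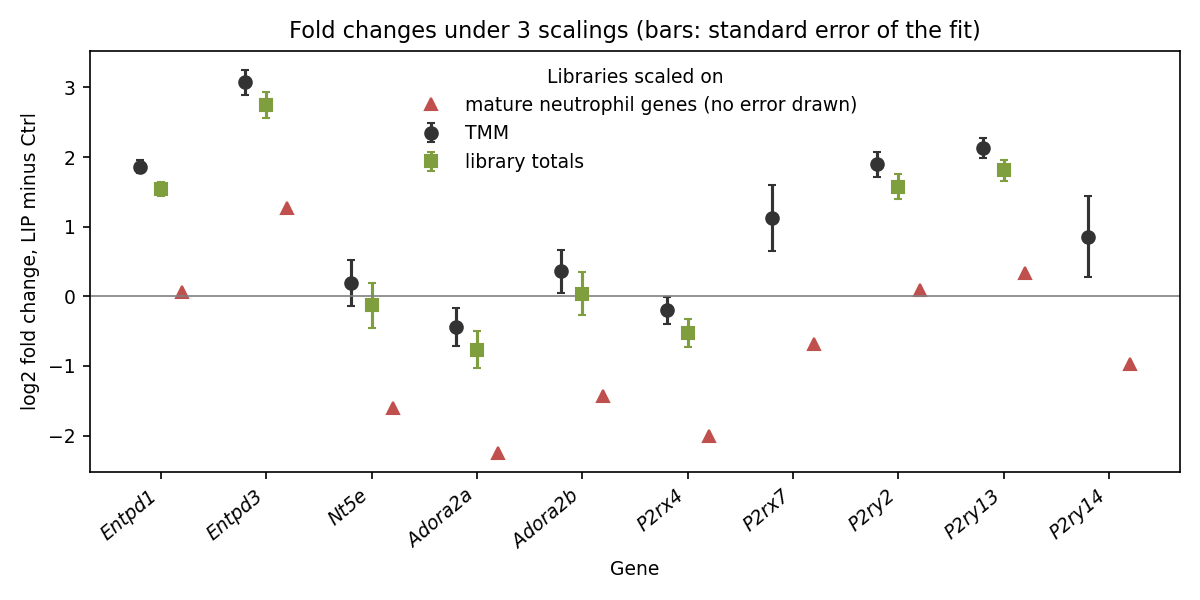
log2 fold change (LIP minus Ctrl) of the 10 genes with libraries scaled by TMM (circles), by library totals (squares, not drawn for *P2rx7* and *P2ry14*, which were below the filter) and on the mature neutrophil genes (triangles). *Entpd3* stays above 1 under all 3, *Entpd1* and *P2ry2* come to about 0 on the neutrophil genes, and *Adora2a* and *P2rx4* come to about -2.

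The genes whose values over the 6 libraries were most like those of *Entpd3*, by the root mean square difference of centred log2(CPM + 1), were *Sycp2* (0.24), *Tmem268* (0.24), *Snai1* (0.26), *Cstdc4* (0.27) and *Sema6b* (0.27). *Snai1*, a transcription factor known from epithelial-mesenchymal transition, had 13.9 ± 0.82 CPM in Ctrl and 94.3 ± 1.37 CPM in LIP (SD, n = 3 each). *Cstdc4*, a member of the stefin group of protease inhibitors, had 27.4 ± 2.48 and 163 ± 18.6 CPM and belongs to a family of near-identical copies between which reads may have been divided. The likeness is dominated by the step between the groups, which these 6 libraries share.

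*P2ry13* and *P2ry14* lie inside *Med12l* on the opposite strand and share no exonic base with it, in a stretch of chromosome 3 that also holds *P2ry12*. *P2ry12*, the ADP receptor best known from platelets, had 36.9, 27.4 and 38.7 CPM in Ctrl and 107, 118 and 100.1 CPM in LIP, and rose 3.16-fold (edgeR's quasi-likelihood test, adjusted p = 1.08e-05). All 9 platelet markers were higher in the same libraries (median log2 fold change 1.23), and their part in the value of *P2ry12* was not tested. *Med12l* itself was at 0.437 FPKM in Ctrl and 1.44 FPKM in LIP. Also within the span of *Med12l*, *Gpr171*, a receptor gene outside the lists and named after its values were seen, moved the other way, from 34.7 to 7.25 FPKM (log2 fold change -1.95). The FPKM ratio of *P2ry12* to *P2ry13* was 1.09 to 1.72 in Ctrl and 0.989 to 1.13 in LIP. Genes of the locus thus did not all move one way. The B cell and T cell lists fell in the same libraries as *Gpr171*, and their part in its value was not tested.

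Beyond the 10 genes, 101 genes of the purine pathway were listed by role, with earlier results of these data known. Of the 101 genes, 96 were in the table and 67 passed the filter. Of these 67, 24 rose and 15 fell in LIP (edgeR's quasi-likelihood test, Benjamini-Hochberg adjusted p below 0.05 over all genes), with 19 and 20 under library totals, and 0 and 53 with the neutrophil scaling. Over all genes tested, 26.5% were higher and 27.2% lower (2766 and 2835 genes). The counts were 1919 and 4146 under library totals, and 59 and 9146 of 10440 with the neutrophil scaling. The median log2 fold change of the 67 genes was 0.25, against -0.09 for all genes.

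Of 6 other genes tested that are named as purine receptors, 4 were higher and 2 lower (median log2 fold change 1.16). The 2 lower genes, *P2ry10* and *P2ry10b*, carry the family symbol, and no purine ligand is claimed for them. Beside *P2ry12*, the ATP-gated channel *P2rx1* (log2 fold change 1.33) and the receptors *P2ry1* and *P2ry6* were higher. The platelet markers rose in the same libraries (median log2 fold change 1.23), and their part in the values of *P2rx1* and *P2ry1* was not tested. *P2ry6*, a receptor for UDP, had 7.54, 5.74 and 4.04 CPM in Ctrl and 13.6, 7.29 and 13.5 CPM in LIP, so that the groups overlapped. Its call (edgeR adjusted p = 0.0375) was lost under library totals (adjusted p = 0.135) and in 4 of the 6 fits that each left out 1 library (up to 0.135), namely those without Ctrl library 2 or 3 or LIP library 1 or 3. *P2ry1*, another ADP receptor, had 3.84, 3.26 and 4.97 CPM in Ctrl and 8.50, 12.7 and 10.6 CPM in LIP (log2 fold change 1.40, standard error 0.32, adjusted p = 0.00411, edgeR). *P2ry10b* was lower (log2 fold change -0.99, edgeR adjusted p = 0.0396), a call lost in 5 of the 6 fits that each left out 1 library (adjusted p up to 0.0959), all but the one without LIP library 3, and also with no filter (0.156) and with filterByExpr (0.0917). Its neighbour in the list, *P2ry10*, a receptor of lymphocytes, went from 110.3 ± 24.0 to 29.6 ± 10.2 CPM (SD, n = 3 each, adjusted p = 0.000150 from edgeR). On the neutrophil scaling, *P2ry12* and *P2ry1* had log2 fold changes of -0.14 and -0.40.

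Among 7 other nucleotide-degrading enzymes tested, 2 were higher and 4 lower (median -0.97). The pair *Bst1* and *Cd38*, neighbouring genes on chromosome 5 that both encode enzymes consuming NAD at the cell surface, moved in opposite directions. *Bst1* was at 103, 138 and 102 CPM in Ctrl and 507, 472 and 446 CPM in LIP (log2 fold change 2.06, standard error 0.13, adjusted p = 9.68e-07, edgeR), whereas *Cd38* was at 54.7, 42.3 and 70.8 CPM in Ctrl and 18.1, 16.8 and 6.82 CPM in LIP (log2 fold change -2.01, standard error 0.34, adjusted p = 0.000621, edgeR). *Acpp*, which encodes an acid phosphatase able to form adenosine from AMP, was the other gene that rose (log2 fold change 1.45, adjusted p = 0.00111, edgeR). Of the intracellular relatives of *Entpd3*, *Entpd5* and *Entpd6* were lower, with log2 fold changes of -1.19 (adjusted p = 0.00384, edgeR) and -1.11 (adjusted p = 0.0207, edgeR). The call of *Entpd6* was lost with no filter (adjusted p = 0.0836), without the second Ctrl library (0.0636) and without LIP library 3 (0.0613), while that of *Entpd5* was kept in these fits.

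For adenosine transport and removal, 2 of 10 genes tested were higher, 1 was lower and 7 did not pass the threshold (median 0.32). *Ampd3*, an AMP deaminase, was at 38.7, 23.4 and 30.8 CPM in Ctrl and 108, 118 and 137 CPM in LIP (log2 fold change 1.97, adjusted p = 1.19e-05, edgeR). *Slc28a2*, a concentrative nucleoside transporter, rose from 59.7 ± 16.7 to 154 ± 10.8 CPM (SD, n = 3 each, adjusted p = 0.000187 from edgeR). *Dpp4*, whose product CD26 is described as binding adenosine deaminase in humans, fell from 38.4 ± 9.79 to 10.4 ± 3.37 CPM (adjusted p = 0.000230, edgeR). Adenosine deaminase itself (*Ada*) had a log2 difference of 0.63 (standard error 0.35), and adenosine kinase (*Adk*) one of 0.13 (standard error 0.30), and neither passed.

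Of 7 genes for ATP release tested, 1 was higher and 2 lower (median -0.59), with 4 lower under library totals and none without Ctrl library 2. *Panx1*, the channel through which leukocytes are known to release ATP, was at 29.4, 46.4 and 30.1 CPM in Ctrl and 20.3, 23.5 and 20.2 CPM in LIP (log2 fold change -0.73, standard error 0.22, adjusted p = 0.0159, edgeR), a call that was lost without the second Ctrl library, where the log2 fold change was -0.48. The volume-regulated channel subunits differed: *Lrrc8d* had a log2 fold change of 1.13 (adjusted p = 0.00109, edgeR) and *Lrrc8a* one of -0.64 (adjusted p = 0.0461, edgeR), which no longer passed in 5 of the 6 fits that each left out 1 library. *Lrrc8c*, the most abundant of this list per length, had 53.6 ± 11.1 CPM in Ctrl and 45.5 ± 12.9 CPM in LIP.

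The inflammasome genes downstream of P2X7 had 6 of 10 members higher and none lower (median 0.66), with 1 lower under library totals and without Ctrl library 2. *Il1b*, the cytokine that the inflammasome matures, was at 3232, 3753 and 3336 CPM in Ctrl and 12069, 12988 and 13475 CPM in LIP, and it overlaps the antisense gene *Il1bos* (mean of 7.69 FPKM). *Nlrp3*, the sensor, rose from 122 ± 13.01 to 304 ± 29.6 CPM (log2 fold change 1.31, adjusted p = 9.12e-06, edgeR), and *Casp4* from 37.2 ± 3.77 to 129 ± 8.003 CPM (log2 fold change 1.80, adjusted p = 1.69e-06, edgeR). The adaptor *Pycard* had a log2 fold change of 0.17 (standard error 0.20). On the neutrophil scaling the values were 0.11 for *Il1b*, 0.00 for *Casp4* and -0.49 for *Nlrp3*.

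Downstream of the adenosine receptors, 3 of 11 cAMP signalling genes tested were higher and 3 lower (median -0.02). *Pde4b*, the main cAMP-degrading phosphodiesterase of this list, rose from 757 ± 26.1 to 1544 ± 46.3 CPM (log2 fold change 1.03, adjusted p = 1.99e-06, edgeR). *Pde7a*, another such phosphodiesterase, fell from 54.2 ± 8.57 to 15.4 ± 1.55 CPM (log2 fold change -1.82, adjusted p = 1.58e-05, edgeR), and *Prkacb*, a catalytic subunit of protein kinase A, fell from 39.8 ± 7.74 to 19.3 ± 0.96 CPM (adjusted p = 0.00108, edgeR). Of the 16 Gi and Gq signalling genes tested downstream of P2Y receptors, 6 were higher and 3 lower (median 0.29). *Gnai2*, the abundant Gi subunit, rose from 854 ± 104 to 1726 ± 54.9 CPM (log2 fold change 1.01, adjusted p = 1.08e-05, edgeR), and *Pik3r5*, the adaptor of PI3Kγ, had a log2 fold change of 1.32 (adjusted p = 0.000241, edgeR). *Itpr3*, a calcium channel of the endoplasmic reticulum, fell from 21.6 ± 1.74 to 4.83 ± 1.14 CPM (adjusted p = 6.41e-05, edgeR), and *Gna11* fell from 9.48, 9.60 and 4.92 CPM to 1.77, 4.23 and 3.03 CPM (adjusted p = 0.0176, edgeR), a call lost without the first or without the second Ctrl library (log2 fold changes of -1.29 and -1.25). Within these lists, the genes that fell moved in the same libraries as the B cell and T cell markers, and the part of those cells was not tested.

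**Figure D5:**
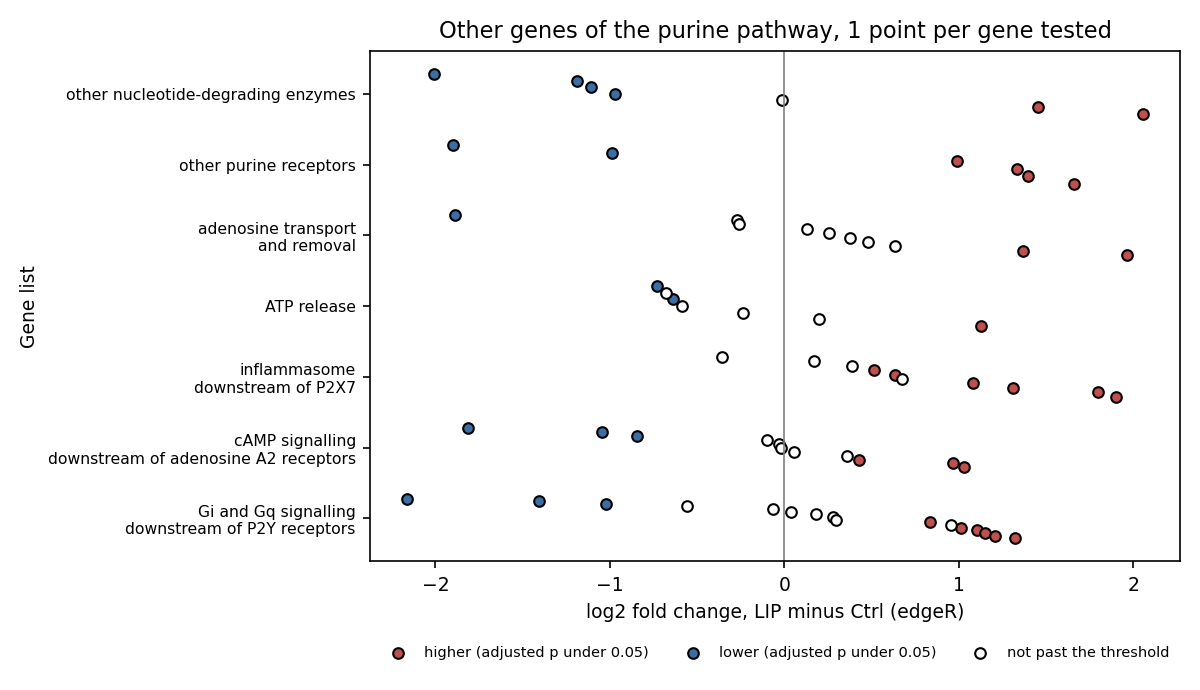
log2 fold change (LIP minus Ctrl, edgeR) of the 67 tested genes of the purine pathway outside the 10, 1 point per gene and 1 row per list. Red points rose and blue points fell (adjusted p below 0.05), white points did not pass; the inflammasome list has 6 red and no blue points, while the other lists hold both.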

How the data were processed

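Sorted PB neutrophils (6 libraries) were profiled by Smart-seq2 with paired-end sequencing. The authors deposited, for each library, raw counts of reads per gene and FPKM values. The submitters' processing notes name cutadapt 1.9, FastQC and GRCm38; the aligner, the counter and the use of strand are not given in the sources used here. PCR copies cannot be told from molecules, and precision rests on the spread between libraries.

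Where a symbol had several rows, the most abundant by FPKM was taken. The 10440 genes averaging 1 FPKM or more entered edgeR 4.0.16 (R 4.3.3; quasi-likelihood, TMM, Benjamini-Hochberg over all genes, threshold 0.05). The code was also run on simulated data with far fewer changed genes than were called here, which does not test the scaling of these libraries. Standard errors were derived from the fold change and its F statistic. Promoter windows came from RefSeq and merged exons from GENCODE M21. Alternatives used DESeq2 1.42.0 and limma 3.58.1 on log2(FPKM + 1), other scalings and filters, the replicate number as a block, and 5 libraries at a time.

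The members and lists were chosen with earlier results of these data known. Named are all members, from each list the 3 called genes with the largest absolute fold change and the most abundant gene, the 5 genes nearest to *Entpd3* and cell type markers. *P2rx1*, *P2ry6*, *P2ry10b*, *Entpd5*, *Entpd6*, *Ada*, *Adk*, *Pycard* and *Gpr171* are named after their values were seen.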

Additional observations from a re-analysis of the deposited data

How the results depend on the processing

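The counts over all genes (2766 higher and 2835 lower), over the 67 pathway genes (24 and 15) and over the 10 members (6 with LIP above Ctrl, 0 below) stayed within 1.5 times under median-of-ratios factors, filterByExpr, no filter and DESeq2. Scaling on the mature neutrophil genes gave 59 higher and 9146 lower of all genes, 0 and 53 of the pathway genes, and 2 members above and 4 below. With library totals, which gave 1919 and 4146 over all genes and moved the median of all genes to -0.42, 2 members were below, as they were in limma on log2(FPKM + 1) and on log2(FPKM + 0.1). Leaving out each library in turn gave 2393 to 2659 genes higher and 2286 to 2798 lower, 22 to 26 and 11 to 15 pathway genes, and 5 to 7 members above and 0 to 1 below. *Nt5e* changed sign with library totals (-0.13), with neutrophil scaling (-1.60), in limma (-0.0544 and -0.0823 with pseudocounts of 1 and 0.1), without the second Ctrl library (-0.0037) and without the first LIP library (-0.0472), with 0.496 the highest value when 1 library was left out. Neutrophil scaling also turned the members *Adora2b* (-1.44) and, in a fit of all listed genes, *P2rx7* (-0.69) and *P2ry14* (-0.97). Outside the members it turned *Acpp* (-0.36), *Gnai2* (-0.78), *Lrrc8d* (-0.68), *Nlrp3* (-0.49), *P2ry1* (-0.40), *P2ry12* (-0.14), *P2rx1* (-0.47), *P2ry6* (-0.81), *Ada* (-1.18), *Adk* (-1.65), *Pycard* (-1.62), *Pde4b* (-0.77), *Pik3r5* (-0.49) and *Slc28a2* (-0.44). These turns under neutrophil scaling follow from setting the rise of the reference genes to 0. The cause of the other changes was not tested.

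Same-numbered libraries come from different mice, and their deviations from the group means correlated by 0.02, 0.06 and 0.04. Libraries of different number correlated by -0.05 to 0.02. Ctrl library 1 was slightly nearer to LIP library 3 (0.0217) than to LIP library 1 (0.0212). Every other library was nearest to its own number. Whether same-numbered libraries shared any handling is not known and was not tested. With the replicate number as a block, 2724 genes were higher and 2822 lower, and 23 and 15 of the pathway genes. At these depths *P2ry14* and *P2rx7*, with 92 to 442 reads a library, have the widest errors.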
